A study of Mus musculus with 15 samples.

Results

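The genes described here are 9 members of the mouse major urinary protein family, Mup1, Mup2, Mup3, Mup7, Mup11, Mup17, Mup20, Mup21 and Mup22, chosen by name. The deposited table lists 55984 genes by symbol, 49 of them with a Mup symbol, and all 9 members passed the filter on low counts that left 17488 genes for testing. RNA was sequenced from hepatocytes of young adult, wild-type male C57BL/6JJcl mice, isolated from the perfused liver and sorted by DNA content after Hoechst staining. The populations were 2n-whole (diploid, 4 mice), 4n-whole (all tetraploid cells, 4 mice), and 2 fractions of the 4n gate, 4n-bottom (lower Hoechst height, mostly binucleate, 4 mice) and 4n-top (higher Hoechst height, enriched for mononucleate cells but with binucleate cells in it, mice 2, 3 and 4), 15 libraries in all. Libraries with the same number came from the same mouse, and the 4n-top library of mouse 1 was left out by the study for its RNA quality. All mice were untreated, and the gate selects DNA content and nuclear geometry, not position in the liver lobule.

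Major urinary proteins are small secreted lipocalins, barrel-shaped proteins with a pocket that holds volatile molecules. They are made mainly in the liver, pass from the blood into the urine and act there as chemical signals between mice. Their liver expression is higher in males and depends on the pulsed release of growth hormone, which acts through JAK2 and STAT5, and on androgens. Most of the genes arose by recent duplication in a single cluster, so that several are almost the same in sequence, and Mup20, which encodes the male pheromone darcin, Mup3 and Mup21 are among the more divergent copies.

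All members lie on the minus strand of chromosome 4 (GRCm39, GENCODE M39), Mup7 furthest to the left at chr4:60066445-60070490 and Mup21 furthest to the right at chr4:62066056-62069175. This annotation has 22 protein-coding Mup genes and 27 Mup pseudogenes, all on chromosome 4 except the pseudogene Mup-ps22 on chromosome 11. The coding sequences of the members span 6 exons and have between 540 and 552 bases. Over the aligned coding bases, Mup1, Mup2, Mup11, Mup17 and Mup22 differed from Mup7 at 6 or 7 bases each (98.7% to 98.9% identity). Mup20 differed at 51 (90.6%), Mup3 at 75 (86%) and Mup21 at 81 (84.9%). Mup1, Mup2, Mup7, Mup11, Mup17 and Mup22 are called the 6 similar members below. A stretch of 60 coding bases in exon 3, with 20 positions that vary among the members, shows both kinds of member, with capitals at the bases that differ from Mup7. It is shown as a stretch in which Mup20, Mup21 and Mup3 depart from the 6 similar members, and each sequence is on the minus strand of GRCm39. It was picked for having the most variable positions among such windows of 60 bases, so it is not a typical stretch of the coding sequence.
Mup7, the same in Mup17 and Mup22: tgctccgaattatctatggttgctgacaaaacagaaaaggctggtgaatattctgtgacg
Mup1, the same in Mup2 and Mup11: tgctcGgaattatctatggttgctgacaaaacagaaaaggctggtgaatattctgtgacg
Mup20: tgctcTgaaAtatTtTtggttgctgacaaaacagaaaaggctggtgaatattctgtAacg
Mup21: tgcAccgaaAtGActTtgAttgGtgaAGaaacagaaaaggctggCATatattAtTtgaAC
Mup3: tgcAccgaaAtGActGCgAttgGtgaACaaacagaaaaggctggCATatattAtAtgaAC
The stretch lies at chr4:60068902-60068961 in Mup7, at chr4:60456439-60456498 in Mup1, at chr4:61970874-61970933 in Mup20, at chr4:62067592-62067651 in Mup21 and at chr4:62004197-62004256 in Mup3. Mup7, Mup17 and Mup22 had no difference among them here, Mup20 had 5 differences from Mup7, Mup21 had 16 and Mup3 had 17.

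How far the counts can separate the members was examined by asking which windows of 100 bases in each member's reference transcript occur in no other Mup transcript and only once in the Mup region of the genome. Of the windows of Mup3, 97% were distinct, and of Mup21 96.6%. The share was 42.8% for Mup17, 35.3% for Mup20, 22% for Mup1, 20.2% for Mup11, 17.9% for Mup7, 7.26% for Mup22 and 2.63% for Mup2. Of the 829 windows of Mup20, 322 also occur in the pseudogene Mup-ps19, which was at 0 counts in all 15 libraries. How reads that match several places were counted is not given in the sources used here, so the split of counts among the 6 similar members is uncertain. The count of Mup20, with 35.3% of its windows distinct, depends on this handling too. A long Mup3 transcript spans Mup20, but no annotated exon base is shared by these genes. Mup1, Mup2, Mup3 and Mup17 overlap an annotated long non-coding RNA on the opposite strand, and whether counting used the strand is not given in the sources used here either.

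**Figure D1:**
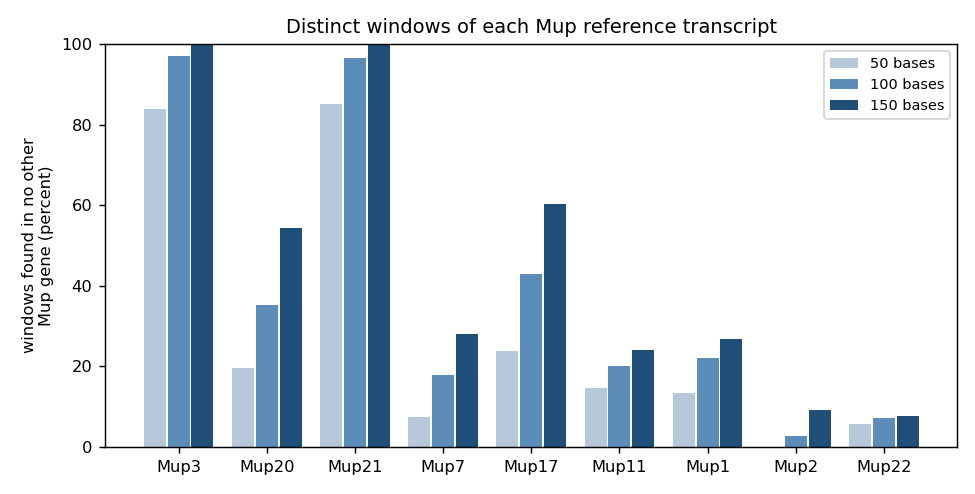
Percent of windows of 50, 100 and 150 bases of each member's reference transcript (bars) that occur in no other Mup transcript and only once in the Mup region. Mup3 and Mup21 are distinct over most of their length (97% and 96.6% at 100 bases), while Mup2 and Mup22 are below 10% at each window length.

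Total counts per library ranged from 22049498 to 42096421, and a count of 3 corresponded to 0.0693 to 0.120 CPM (read counts scaled to a common library size, with TMM factors), a limit that covers counting error only. Alb, the albumin gene and a hepatocyte marker, was between 48549 and 73188 CPM in all libraries. The summed CPM of 8 endothelial markers stayed at or below 23.9, of 8 Kupffer cell markers at or below 6.72, of 8 stellate cell markers at or below 6.09 and of 6 biliary markers at or below 47.8. The biliary sum was higher in the 2n-whole libraries (35.0 to 47.8) than in the 4n-whole (16.6 to 31.2), 4n-bottom (21.3 to 30.4) and 4n-top libraries (17.8 to 32.0), with Sox9 its most abundant gene, and its part in the Mup values was not tested. At least 1 library had a count above 0 for every one of these markers. Krt7, Vsig4 and Timd4 were at 0 in all 4n-whole libraries, Epcam in all 4n-bottom libraries, and Krt19, Krt7, Epcam, Cftr and Marco in all 4n-top libraries. In bulk RNA of sorted cells, fewer cells that express a gene and less RNA per cell cannot be told apart.

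Levels were compared between members per kilobase of the reference transcript. Distinct windows of 100 bases made up from 2.63% (Mup2) to 97% (Mup3) of a member. If reads that match several places were not counted, members with few distinct windows would appear too low, so the order below depends on this handling. In 2n-whole the order was Mup3 with 6060 ± 257 (SD, n = 4) CPM per kb, Mup20 with 2096 ± 179, Mup7 with 1370 ± 793, Mup21 with 194 ± 79.4, Mup22 with 35.0 ± 9.29, Mup17 with 11.9 ± 4.45, Mup11 with 9.74 ± 4.89, Mup1 with 8.93 ± 4.38 and Mup2 with 3.90 ± 2.14. Mup3 was far above the rest, Mup7 had a spread wide enough to reach Mup20, and Mup17, Mup11 and Mup1 lay within each other's spread. In 4n-whole Mup7, at 2191 ± 1492 CPM per kb (SD, n = 4), came before Mup20, at 1008 ± 147, with Mup3 still first at 4158 ± 1122. The other Mup genes with a sizeable level, none of them a member, were Mup14 (297 ± 120 CPM per kb in 2n-whole, n = 4), Mup15 (82.8 ± 52.2), Mup16 (65.7 ± 49.6) and Mup12 (31.8). The 9 members together held 89.5% to 97.3% of the counts on all Mup symbols in each library. Of the 40 other Mup symbols, 11 were at 0 in all libraries, and the 27 that did not pass the filter reached at most 0.813 CPM in any library.

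Tests were made with edgeR's quasi-likelihood test, fitted to the 15 libraries together with terms for population and mouse, and p-values were adjusted over all 17488 genes by the Benjamini-Hochberg method. A gene was called at an adjusted p below 0.05 with an absolute log2 fold change above 0.5. The first question was how tetraploid cells differ from diploid cells, so 4n-whole was compared with 2n-whole. Per the methods of the study, sorted 2n cells were centrifuged at a higher force and for longer than sorted 4n cells. In every comparison with 2n-whole this handling cannot be told apart from ploidy. In 4n-whole, Mup20, Mup21 and Mup3 were lower than in 2n-whole and Mup17, Mup11 and Mup7 were higher, so that 6 of the 9 members were called, in both directions. Among all tested genes 1.74% were called higher and 1.73% lower in this comparison. The median log2 fold change of the 9 members was 0.00, beside -0.01 for all tested genes.

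Mup20, the darcin gene, fell the furthest. It was at 1791, 2179, 1887 and 1923 CPM in the 2n-whole libraries of mice 1 to 4 and at 930, 1032, 1035 and 744 CPM in their 4n-whole libraries. The ranges did not overlap, and the fall was seen in 4 of 4 mice. The log2 fold change was -1.06 ± 0.10 (SE) with an edgeR adjusted p of 1.9e-07. Mup20 was called under every alternative setting tried for this comparison, including the model without the mouse, where it was the 1 member called. That model called 40 of all 17488 genes.

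Mup21, one of the least similar members, showed a change of like size at a much lower level. Its 2n-whole values were 213, 197, 197 and 65.7 CPM in mice 1 to 4, against 102, 82.8, 123 and 32.0 CPM in 4n-whole. Mouse 4 was low in both populations, which made the ranges overlap, but each of the 4 mice was lower in 4n-whole. The log2 fold change was -1.00 ± 0.10 (SE), with an edgeR adjusted p of 1.9e-07. Without the mouse in the model the log2 fold change was -0.98 and the edgeR adjusted p 0.388.

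Mup3 carried most of the family's counts. In 2n-whole it was at 6171, 5823, 6105 and 5630 CPM in mice 1 to 4, and in 4n-whole at 4654, 2798, 5258 and 3572 CPM. Every 4n-whole library was below every 2n-whole library, and mouse 2 had the lowest 4n-whole value. The log2 fold change was -0.57 ± 0.11 (SE), with an edgeR adjusted p of 0.00164. With mouse 2 left out it was -0.43 with an edgeR adjusted p of 0.00330, short of the limit on the fold change, and without the mouse term the edgeR adjusted p was 0.188.

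Mup17 rose the most among the 6 similar members. Its 2n-whole values were 18.0, 11.3, 11.1 and 7.27 CPM in mice 1 to 4 and its 4n-whole values 88.0, 13.8, 26.7 and 36.0 CPM. The rise was large in mice 1 and 4 (log2 differences of 2.29 and 2.31) and small in mouse 2 (0.28). The populations overlapped, since 4n-whole of mouse 2 (13.8 CPM) was below 2n-whole of mouse 1 (18.0 CPM). The log2 fold change was 1.50 ± 0.25 (SE) with an edgeR adjusted p of 4.1e-04.

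Mup11 and Mup7 were near the thresholds. Mup11 had a log2 fold change of 0.68 ± 0.20 (SE) with an edgeR adjusted p of 0.0497, and it was higher in 4n-whole in 3 of 4 mice (6.96, 7.60, 7.93 and 17.5 CPM in 2n-whole from lowest to highest, 6.17, 11.2, 11.9 and 52.0 CPM in 4n-whole). Mup7, the most abundant of the 6 similar members, had a log2 fold change of 0.55 ± 0.16 (SE) with an edgeR adjusted p of 0.0471. It was at 2513, 974, 1237 and 740 CPM in 2n-whole and at 3965, 664, 2804 and 1306 CPM in 4n-whole, higher in mice 1, 3 and 4 and lower in mouse 2. Mup7 was not called when mouse 1, 3 or 4 was left out (edgeR adjusted p 0.132, 0.204 and 0.186), and Mup11 was not called without mouse 1 or 4 (0.405 and 0.157). With DESeq2 and the mouse in the model the adjusted p was 0.216 for Mup7 and 0.0522 for Mup11.

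The remaining members were not called. Mup1 had a log2 fold change of 0.29 ± 0.22 (SE), Mup2 of 0.00 ± 0.32 and Mup22 of -0.16 ± 0.14, with edgeR adjusted p of 0.514, 0.999 and 0.598. Mup2 and Mup22 are also the members with the smallest share of distinct windows. Of the 13 other Mup genes tested, Mup15 was called, with a log2 fold change of 1.04 ± 0.30 (SE) and an edgeR adjusted p of 0.0355, and 2.42% of its windows of 100 bases were distinct. DESeq2 called 0 of these 13.

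**Figure D2:**
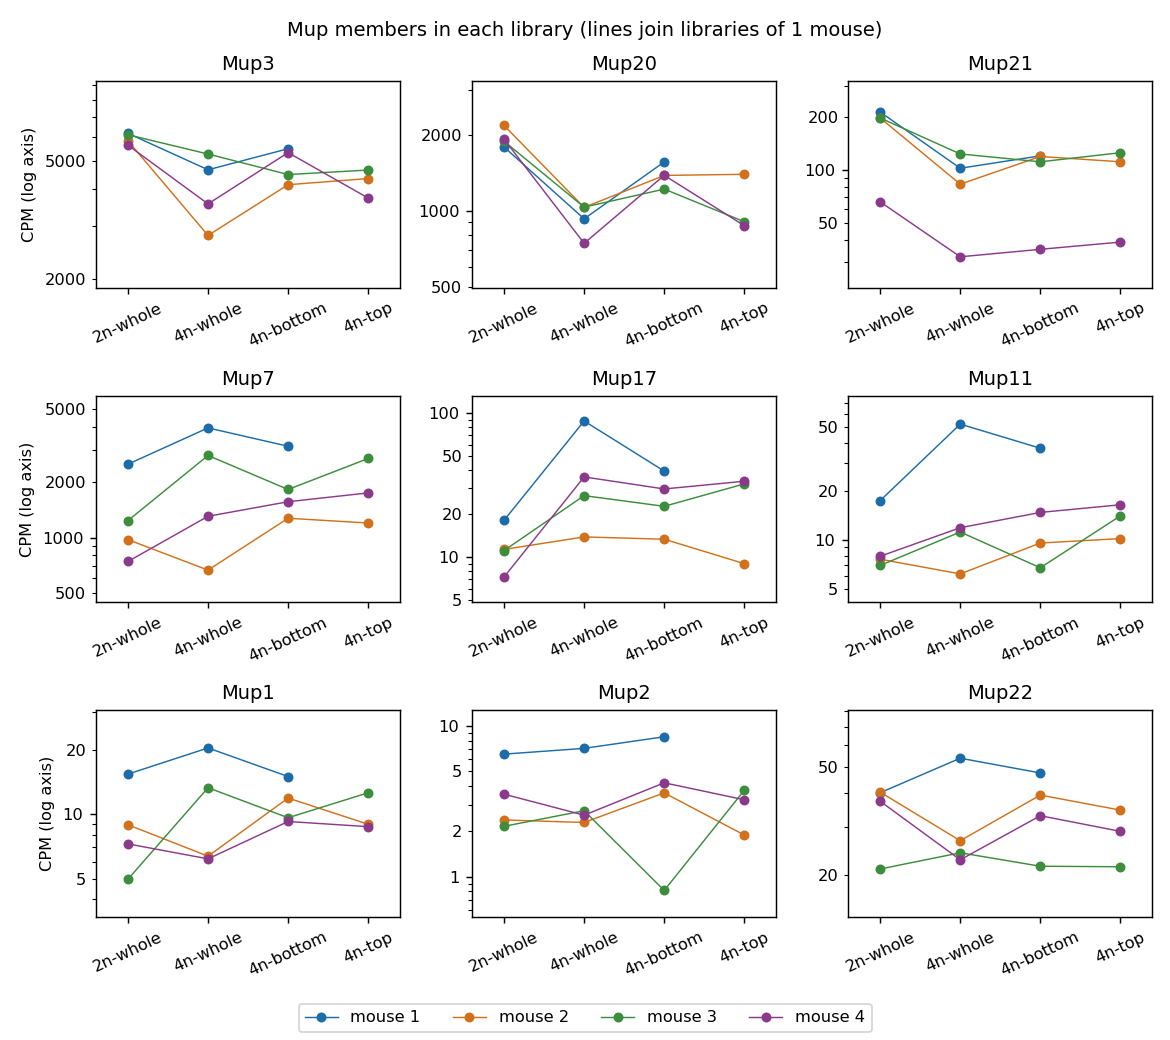
CPM (log axis) of each member in the 15 libraries by population, with 1 point per library and a line joining the libraries of 1 mouse. Mup3 and Mup20 are lower in every 4n library than in any 2n-whole library, and Mup21 is lowest in mouse 4 throughout. Mup7, Mup11 and Mup17 are highest in mouse 1 in the populations with a library of mouse 1, which 4n-top lacks.

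The 2 fractions of the 4n gate were each compared with 2n-whole, with the same 2n-whole libraries as controls, so these comparisons and the one above are not independent of each other. In 4n-bottom 1 of 9 members was called, Mup21, which was lower, beside 0.229% of all tested genes called lower and 0.234% called higher. Mup21 was at 120, 119, 111 and 35.3 CPM in 4n-bottom of mice 1 to 4. Its within-mouse log2 differences from 2n-whole lay between -0.90 and -0.73, and its log2 fold change was -0.82 ± 0.10 (SE) with an edgeR adjusted p of 3.3e-05. Mup20, at 1563, 1382, 1220 and 1383 CPM, had a log2 fold change of -0.48 ± 0.10 (SE) and an edgeR adjusted p of 0.0220, under the limit on the fold change. Its 4n-bottom and 2n-whole ranges did not overlap, and neither did those of Mup3, whose 4n-bottom values of 5478, 4146, 4486 and 5316 CPM gave a log2 fold change of -0.29 ± 0.11 (SE) with an edgeR adjusted p of 0.325. Mup17 had a log2 fold change of 1.02 ± 0.25 (SE, edgeR adjusted p 0.0581) and was higher in 4 of 4 mice, and Mup7 had one of 0.58 ± 0.16 (SE, edgeR adjusted p 0.149), also higher in 4 of 4 mice. With mouse 2 left out, Mup7 (edgeR adjusted p 5.1e-05) and Mup17 (5.0e-08) were called with Mup21, and with mouse 3 left out Mup17 was (0.0342). Mup20 passed the fold limit with mouse 1 left out (log2 fold change -0.59, edgeR adjusted p 0.0181) or mouse 4 (-0.50, 0.0330). Mup11 (0.58 ± 0.20), Mup1 (0.39 ± 0.22), Mup2 (0.15 ± 0.33) and Mup22 (0.01 ± 0.14) were not called, with edgeR adjusted p of 0.296 to 0.996.

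In 4n-top 5 of 9 members were called, Mup20 and Mup21 lower and Mup7, Mup11 and Mup17 higher than in 2n-whole, beside 0.520% of all tested genes called lower and 0.440% higher. Mup20 was at 1396, 906 and 874 CPM in 4n-top of mice 2, 3 and 4, below all 2n-whole libraries (log2 fold change -0.89 ± 0.12 SE, edgeR adjusted p 2.0e-05). Mup21, at 111, 125 and 38.8 CPM, had a log2 fold change of -0.76 ± 0.11 (SE) with an edgeR adjusted p of 7.7e-05. Both were lower in 3 of 3 mice. The rise was 1.21 ± 0.27 (SE) for Mup17, 0.98 ± 0.22 for Mup11 and 0.84 ± 0.18 for Mup7 on the log2 scale, with edgeR adjusted p of 0.0168, 0.0168 and 0.0105. Mup7 and Mup11 were higher in 3 of 3 mice, and Mup17 in mice 3 and 4 but not in mouse 2 (9.00 CPM in 4n-top, 11.3 in 2n-whole). Leaving out mouse 4 left Mup7, Mup11 and Mup17 uncalled (edgeR adjusted p 0.0997, 0.101 and 0.305), as did leaving out mouse 1 for Mup11 and Mup17 (0.0750 and 0.0639) and mouse 3 for Mup17 (0.0828). Mup3, at 4349, 4644 and 3738 CPM, was below all 2n-whole libraries, with a log2 fold change of -0.44 ± 0.12 (SE) and an edgeR adjusted p of 0.0785. Mup1 (0.45 ± 0.24), Mup2 (0.21 ± 0.36) and Mup22 (-0.11 ± 0.15) were not called, with edgeR adjusted p between 0.503 and 0.888. Without the mouse in the model edgeR called 0 members in 4n-top or in 4n-bottom, with Mup20 in 4n-top the nearest to a call (log2 fold change -0.88, edgeR adjusted p 0.0661). That model called 2 of all 17488 genes in 4n-top and 0 in 4n-bottom.

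The second question of the study was whether 4n cells of different nuclear make-up differ, so the 4n fractions were compared with each other. In 4n-top against 4n-bottom 0 of 9 members were called, and 0.0114% of all tested genes were. At an unadjusted p under 0.05 there was 1 member, Mup20, beside 2.79% of all tested genes. Its log2 fold change was -0.41 ± 0.12 (SE), with an unadjusted p of 0.00147 and an edgeR adjusted p of 0.907. DESeq2 gave an adjusted p of 0.0115 and edgeR without the filter on low counts 0.00225, both with a log2 fold change of -0.41, so that DESeq2 called 0 members through the fold limit alone for Mup20. Over all genes DESeq2 called 3003 of 39304 in this comparison. Mup20 was lower in 4n-top in mice 3 and 4 (log2 differences of -0.43 and -0.66) and the same in mouse 2 (0.01). It was called when mouse 2 was left out (log2 fold change -0.62, edgeR adjusted p 0.00347). For the other members the log2 fold changes lay between -0.14 ± 0.12 (SE, Mup3) and 0.41 ± 0.22 (SE, Mup11).

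Against 4n-bottom, 4n-whole also had 0 members called, beside 0.00572% of all genes, with Mup20 nearest to a call. Its log2 fold change was -0.58 ± 0.10 (SE) with an edgeR adjusted p of 0.0527, the ranges of 744 to 1035 and 1220 to 1563 CPM did not overlap, and 4 of 4 mice were lower in 4n-whole. With DESeq2 the adjusted p was 1.4e-05, and without mouse 2 or mouse 3 the edgeR adjusted p was 1.8e-04 or 4.1e-04. Mup3 had a log2 fold change of -0.28 ± 0.11 (SE, unadjusted p 0.0158, edgeR adjusted p 0.824), and these 2 were the members under an unadjusted p of 0.05, beside 5.57% of all tested genes. Against 4n-top, 4n-whole had 0 of 9 members called by edgeR, beside 0% of all tested genes. DESeq2 also called 0 of the 9 members, and 2751 of 39304 genes in all. In edgeR 1 member was under an unadjusted p of 0.05, Mup21 (-0.24 ± 0.11 SE, unadjusted p 0.0336), beside 4.00% of all tested genes. Although 4n-bottom and 4n-top are fractions of the 4n gate, Mup20 averaged 935 CPM in 4n-whole, below 4n-bottom (1387) and 4n-top (1059). Against 4n-top it was lower in mice 2 and 4 (log2 differences of -0.44 and -0.23) and higher in mouse 3 (0.19). A difference between sorts or libraries was not tested.

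**Figure D3:**
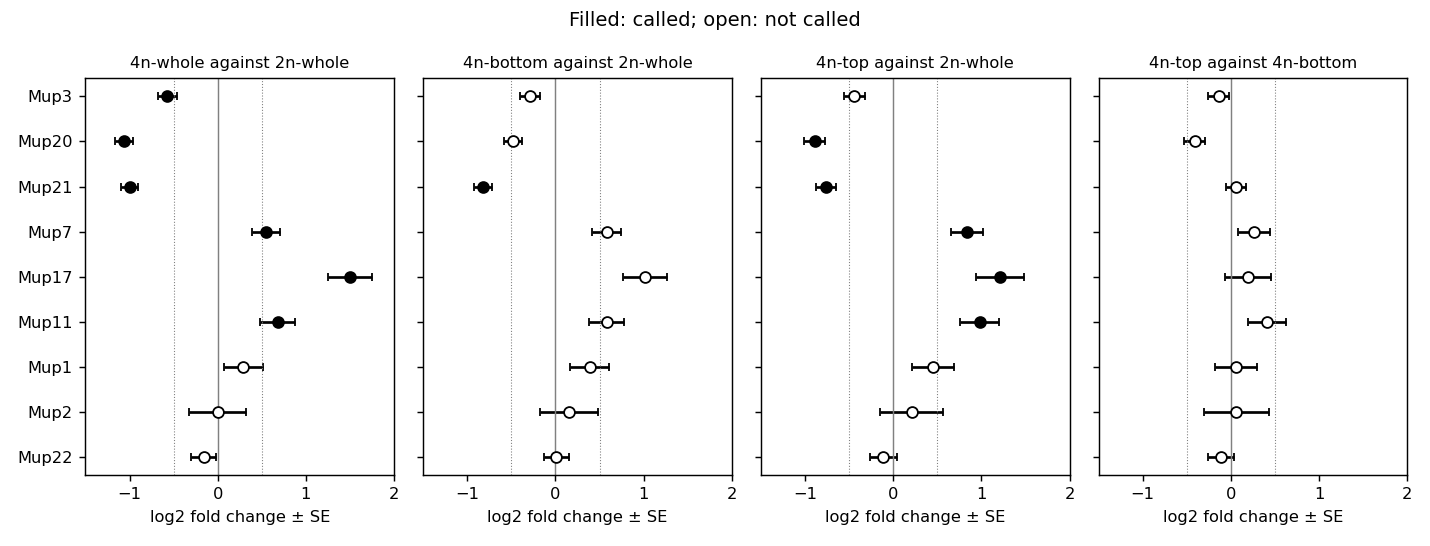
Log2 fold change (points) ± SE (bars) of each member in the comparisons of 4n-whole, 4n-bottom and 4n-top with 2n-whole and of 4n-top with 4n-bottom, with called members filled and dotted lines at the fold limit of 0.5. Mup20 and Mup21 lie left of 0 in each comparison with 2n-whole and Mup17, Mup11 and Mup7 to the right, while no member is filled in 4n-top against 4n-bottom.

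The members were also summed in each library, since reads exchanged between members do not alter their sum. Reads exchanged with other Mup genes can alter it, as Mup12 is 99.7% identical to Mup1. If reads that match several places were not counted, they are missing from the sum, above all for members with few distinct windows. How they were counted is not given in the sources used here, so the sum describes counted reads and may not be a family total. The sum was 9481 ± 979 CPM (SD, n = 4) in 2n-whole, 7384 ± 2592 in 4n-whole, 8389 ± 1492 in 4n-bottom and 7358 ± 1004 (SD, n = 3) in 4n-top. The ranges of the populations overlapped, although 2 of the 3 4n-top libraries were below the lowest 2n-whole library (8423 CPM). Within mice, the log2 difference of the sum was -0.13, -1.00, -0.03 and -0.55 for 4n-whole minus 2n-whole in mice 1 to 4 (mean -0.43 ± 0.44, SD). For 4n-bottom minus 2n-whole the mean was -0.19 ± 0.19 (SD, 4 mice, 4 lower), for 4n-top minus 2n-whole -0.30 ± 0.12 (SD, 3 mice, 3 lower), and for 4n-top minus 4n-bottom -0.07 ± 0.27 (SD, 3 mice, 1 lower). Summed over all genes with a Mup symbol, 4n-whole minus 2n-whole was -0.39 ± 0.46 (SD, 3 of 4 mice lower, mouse 3 at 0.00). On that sum 4n-bottom minus 2n-whole was -0.17 ± 0.20 (3 of 4 lower) and 4n-top minus 2n-whole -0.27 ± 0.13 (3 of 3 lower).

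Splitting the sum by sequence showed opposite movements of the counted reads. The limit on reads that match several places applies here too, most to the members with few distinct windows. The sum of Mup3, Mup20 and Mup21 was 8046 ± 284 CPM in 2n-whole and 5090 ± 1162 in 4n-whole (SD, n = 4 each), lower in 4 of 4 mice with a mean log2 difference of -0.69 ± 0.32 (SD). The sum of the 6 similar members, between which reads can be exchanged, was 1436 ± 807 in 2n-whole and 2293 ± 1552 CPM in 4n-whole, higher in 3 of 4 mice with a mean log2 difference of 0.52 ± 0.74 (SD). In 4n-bottom this sum was higher than in 2n-whole in 4 of 4 mice (0.58 ± 0.33), and in 4n-top in 3 of 3 mice (0.86 ± 0.51). Mup3 made up 62.9% ± 4.09 of the 9-member count in 2n-whole and 56.6% ± 6.74 in 4n-whole, Mup20 20.7% ± 3.17 and 14.0% ± 5.74, and Mup7 13.9% ± 6.49 and 26.9% ± 11.0 (SD, n = 4 each). As a share of the total count, without TMM factors, the 9 members took 0.872% ± 0.121 in 2n-whole and 0.771% ± 0.229 in 4n-whole, with a mean within-mouse log2 difference of -0.22 ± 0.34 (SD, 3 of 4 mice lower). Against TMM scaling, total-count scaling shifted every gene by 0.21 (log2) for 4n-whole, 0.12 for 4n-bottom and 0.20 for 4n-top, each against 2n-whole.

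**Figure D4:**
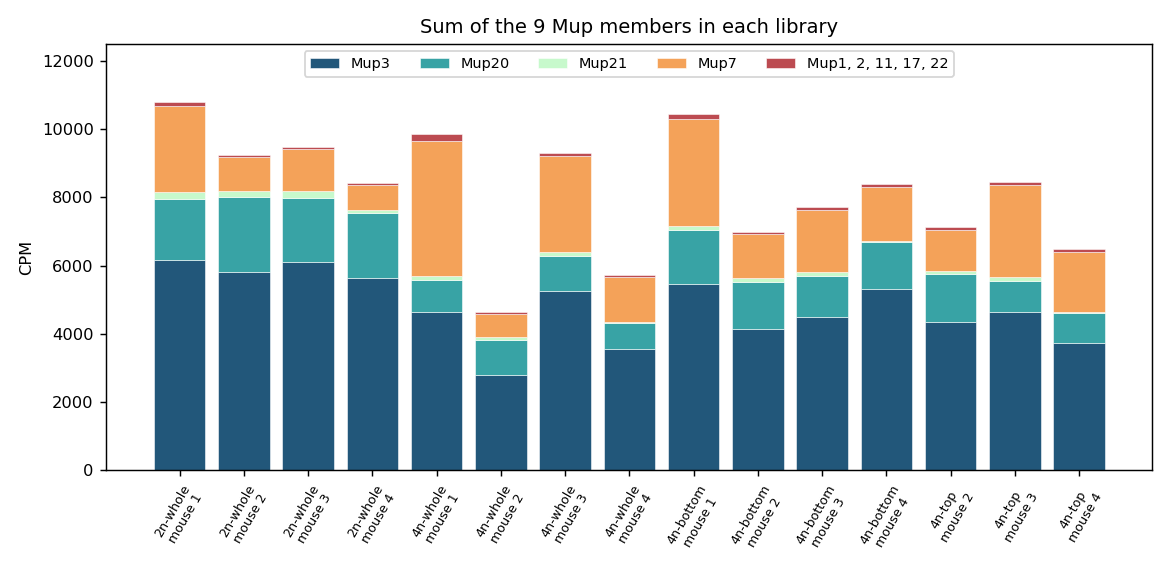
CPM of the 9 members stacked for each of the 15 libraries, with Mup3, Mup20, Mup21 and Mup7 apart and the other 5 summed. Bars for Mup3 and Mup20 are shorter in the 4n libraries than in 2n-whole, and in 2n-whole, 4n-whole and 4n-bottom the Mup7 part is largest in the library of mouse 1.

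The mouse was as visible as the population in several members. A mouse here is also 1 liver isolation and sort, which cannot be told apart from the mouse itself. In the test of the mouse term, 7 of 9 members had an edgeR adjusted p below 0.05, beside 19.2% of all tested genes. Over the 3 populations sampled in all 4 mice, Mup21 averaged 145, 133 and 144 CPM in mice 1, 2 and 3 and 44.4 CPM in mouse 4 (edgeR adjusted p 1.0e-12). Mup21 was lowest in mouse 4 in each population. Mup7 averaged 3208, 971, 1957 and 1205 CPM in mice 1 to 4 (edgeR adjusted p 9.4e-08) and Mup11 35.4, 7.78, 8.28 and 11.6 CPM (3.7e-08). Both were highest in mouse 1 in each population with a library of mouse 1, which 4n-top lacks. Mup20, with means from 1350 to 1531 CPM, and Mup3, with means from 4256 to 5434 CPM, had edgeR adjusted p of 0.0858 and 0.0876. Mup17, Mup22, Mup1 and Mup2 were the other members past the threshold, with edgeR adjusted p between 5.6e-05 and 0.00260. With mouse 1 left out, 4 of 9 members passed it. The share of all tested genes was not taken in that fit, so this drop cannot be set against the other genes. Among the 13 other tested Mup genes, 6 passed with all mice in the fit, and Mup15 averaged 311 CPM in mouse 1 and 57.6 CPM in mouse 2.

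**Figure D5:**
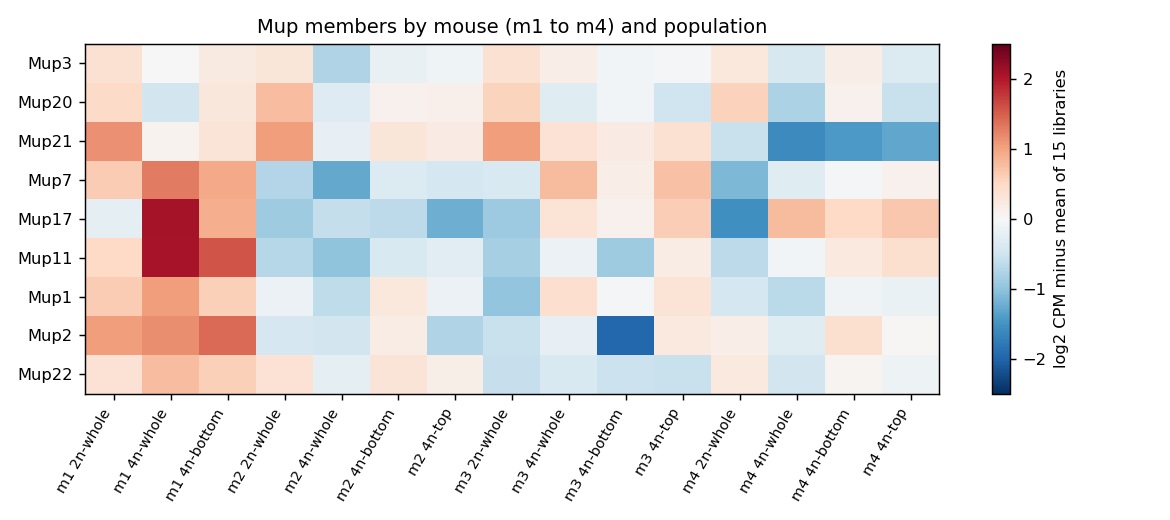
Log2 CPM of each member minus its mean over the 15 libraries (colour), with libraries ordered by mouse and then by population. Mup21 is low in all libraries of mouse 4, and Mup7, Mup11 and Mup2 are high in all libraries of mouse 1.

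Pairs of members were described by Pearson's r of log2 CPM over the 15 libraries, which come from 4 mice and are not independent. It was 0.51 to 0.72 among Mup3, Mup20 and Mup21 (3 pairs), had a median of 0.61 among the 6 similar members (15 pairs, 0.12 to 0.82), and between these groups had a median of 0.10 (18 pairs, -0.66 to 0.36, 11 of them above 0). With the mean of each mouse removed, r was 0.82 to 0.88 among Mup3, Mup20 and Mup21 (3 pairs) and had a median of 0.45 among the 6 similar members (15 pairs, -0.12 to 0.86). Between these groups the median was -0.24 (18 pairs, -0.82 to 0.62), with Mup17 and Mup20 at -0.82. Libraries share depth and scaling, and the similar members also share reads. The genes most like the 9-member sum over the 15 libraries, among 7360 genes without a Mup symbol, were Rraga (r = 0.95), Sf3b1 (0.95), 9130016M20Rik (0.94), Zbtb41 (0.94) and Xrn2 (0.92). With mouse means removed they were Kng2, Otc, Gabpa, Nxt2 and Cox7c, each at 0.97.

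Promoter sequence was at hand for 6 members, Mup2, Mup3, Mup7, Mup11, Mup17 and Mup21, in the RefSeq promoter table (GRCm38.p6). Of these, Mup3 and Mup21, which were lower in 4n-whole, and Mup17, which was higher, are shown over the 250 bases before the annotated start, on the minus strand, with the TATA-like word TATATAAG in capitals.
Mup3: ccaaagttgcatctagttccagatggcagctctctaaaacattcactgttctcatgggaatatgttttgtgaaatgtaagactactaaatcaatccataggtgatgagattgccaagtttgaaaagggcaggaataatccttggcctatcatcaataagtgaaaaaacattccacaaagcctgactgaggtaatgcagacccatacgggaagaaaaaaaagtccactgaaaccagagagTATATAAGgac
Mup21: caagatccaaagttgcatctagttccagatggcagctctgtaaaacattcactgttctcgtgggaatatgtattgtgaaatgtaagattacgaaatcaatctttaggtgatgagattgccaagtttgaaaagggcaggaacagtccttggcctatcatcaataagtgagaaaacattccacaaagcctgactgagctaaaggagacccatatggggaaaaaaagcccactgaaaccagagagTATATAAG
Mup17: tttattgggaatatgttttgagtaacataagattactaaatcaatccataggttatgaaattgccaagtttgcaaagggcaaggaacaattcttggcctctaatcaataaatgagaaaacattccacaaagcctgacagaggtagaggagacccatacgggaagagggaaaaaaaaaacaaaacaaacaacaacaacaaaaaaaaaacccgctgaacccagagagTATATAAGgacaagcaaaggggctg
The windows are chr4:62087318-62087567, chr4:62150842-62151091 and chr4:61595833-61596082. Mup3 and Mup21 were 93.4% identical over 244 aligned bases, while Mup17 was 87.6% identical to Mup3 and 86.2% to Mup21. TATATAAG, searched on both strands, was in the window of 4 of the 6 members and in 0.992% of 27025 promoters. The word TTCNNNGAA, the core that STAT5 binds, was in 0 of the 6 and in 7.18% of promoters on either strand. The annotated starts of Mup7 and Mup11 lie further upstream in the aligned sequence, so their windows hold other parts of it.

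Genes of the growth hormone pathway, from receptor to nuclear factors, were compared in the same fit. Of 18 genes tested, 1 was called higher and 0 lower in 4n-whole against 2n-whole, with a median log2 fold change of 0.06. The called gene was Socs2, a feedback inhibitor of growth hormone signalling that STAT5 induces (log2 fold change 0.62 ± 0.14 SE, edgeR adjusted p 0.00618). Igf1, the hormone that growth hormone induces (-0.48 ± 0.10, 0.00478), and Cebpa, a hepatocyte transcription factor (0.45 ± 0.11, 0.0142), were under the adjusted p but short of the fold limit and are named for that after their values were seen. At an unadjusted p under 0.05 there were 6 of 18, beside 20.4% of all tested genes. In 4n-bottom and 4n-top against 2n-whole edgeR and DESeq2 called 0 of 18, with 2 and 5 at an unadjusted p under 0.05, beside 10.2% and 11.3% of all tested genes. Of 15 other genes with higher expression in male than in female liver, 3 were called higher and 2 lower in 4n-whole. Elovl3, a fatty acid elongase, had a log2 fold change of 1.27 ± 0.14 (SE, edgeR adjusted p 9.9e-07), Susd4, a regulator of complement, of 2.59 ± 0.27 (5.5e-07), and Ugt2b38, a glucuronosyltransferase, of -1.61 ± 0.13 (3.8e-08). Susd4 was at a low level, with a mean of 1.11 CPM in 2n-whole, beside 97.1 for Elovl3 and 51.0 for Ugt2b38. This list held called genes in both directions in the other comparisons with 2n-whole too, 3 higher and 1 lower in 4n-bottom and 4 higher and 1 lower in 4n-top. Of 8 tested genes of a female-biased list, edgeR called 0 in any of the 6 comparisons, with 2 at an unadjusted p under 0.05 and 1 called by DESeq2 in 4n-whole against 2n-whole, where 20.4% of all tested genes had such a p.

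Other lipocalins and the acid glycoproteins were a second point of reference. Of 9 tested, 0 were called higher and 3 lower in 4n-whole against 2n-whole. These were Orm1, an acute phase plasma protein (log2 fold change -0.52 ± 0.11 SE, edgeR adjusted p 0.00385), Ptgds, a prostaglandin D synthase (-1.02 ± 0.29, 0.0373), and Lcn2, which binds bacterial siderophores (-1.49 ± 0.43, 0.0388). Ptgds and Lcn2 were at low levels, with 2n-whole means of 7.80 and 4.05 CPM, beside 369 for Orm1. From 2n-whole to 4n-whole, Lcn2 was not lower in mouse 1 (0.887 and 1.11 CPM), nor Ptgds in mouse 2 (4.47 and 6.53 CPM). Of 18 abundant plasma protein genes, edgeR and DESeq2 called 0 in any of the 6 comparisons. In 4n-whole against 2n-whole 11 of them had an unadjusted p under 0.05, beside 20.4% of all tested genes, and their log2 fold changes lay between -0.40 and 0.27.

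Markers of lobular position moved in the same comparisons. In 4n-whole against 2n-whole, 11 of 12 pericentral genes were called higher and 0 lower (median log2 fold change 1.61), and 3 of 12 periportal genes were called lower and 0 higher (median -0.25). The summed CPM of the pericentral genes was 519 to 876 in 2n-whole and 913 to 3104 in 4n-whole, that of the periportal genes, most of it from Alb, 80371 to 92734 and 66724 to 89970. Without Alb the other 11 periportal genes summed to 19750 to 24119 CPM in 2n-whole and 16885 to 21760 in 4n-whole. In 4n-bottom 8 and in 4n-top 7 of the 12 pericentral genes were called higher, with 0 and 1 periportal genes called lower. Of 3 tested midlobular genes, 2 were called higher in each of these comparisons. The part of lobular position in the Mup differences was not tested.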

How the data were processed

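RNA of sorted hepatocytes was sequenced in 15 libraries from 4 mice. Per the labels and the methods of the study, the authors made stranded total RNA libraries, aligned reads to GRCm39 with STAR 2.7.11a and counted them per gene with featureCounts (Subread). The deposited table holds raw counts of 55984 genes. The annotation, the strand setting and the treatment of mates and of multiply matching reads are not given in the sources used here. Among counts from 1 to 10, 74.2% to 81.4% per library were even numbers, so a count may not stand for 1 fragment.

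Counts were tested with edgeR 4.0.16 (R 4.3.3), with TMM factors, filterByExpr at its default minimum count of 10 and minimum total of 15, and the population and the mouse as terms. Libraries of the same number come from the same mouse, and residual log2 CPM (prior count 2) of the 21 such pairs correlated across genes with a mean r of 0.158 (0.0845 to 0.227). Family sums were described without a test. The alternatives were no mouse term, DESeq2 1.42.0, ComBat-seq (sva 3.50.0) before DESeq2, other scaling factors, no filter on low counts, fewer populations, no fold limit and leaving out each mouse. No 2 libraries had identical counts.

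The members and the gene lists were chosen with earlier results of these data known, so they are not independent of them. All 9 members are named in each comparison, and from each other list up to 3 genes with the smallest p in 4n-whole against 2n-whole among those called in any comparison, and the 5 genes most like the family sum by each measure. Sequences come from GENCODE M39 (GRCm39) and from the RefSeq promoter table (GRCm38.p6).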

Additional observations from a re-analysis of the deposited data

Results flagged for a closer look

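In 30 groups of 4 libraries (9 members and their sum in 3 populations), 7 held a library set apart from the other 3 by Dixon's ratio, where chance flags about 1 in 20 groups, or 1.50 here. In 4n-whole, mouse 1 was highest for Mup2 (7.11 CPM, next 2.74), Mup11 (52.0 CPM, next 11.9) and Mup22 (53.8 CPM, next 26.8). In 2n-whole, mouse 1 was also highest for Mup11 (17.5 CPM, next 7.93). Mouse 4 was lowest for Mup21 in 2n-whole (65.7 CPM, next 197) and in 4n-bottom (35.3 CPM, next 111), and mouse 3 was lowest for Mup22 in 2n-whole (21.1 CPM, next 37.4). These groups share mice and, for the similar members, reads, so the flags are not independent.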

How the results depend on the processing

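The direction of each called member held under all alternatives. The number of members called in 4n-whole against 2n-whole was 4 to 6 under the others but 1 without the replicate block, that is, without pairing libraries by mouse, and for 4n-top against 2n-whole and 4n-bottom against 2n-whole it was then 0 and 0. Without the block, edgeR called 40 of all 17488 genes in 4n-whole, 2 in 4n-top and 0 in 4n-bottom, each against 2n-whole. In 4n-whole against 2n-whole the main model called 305 genes higher and 302 lower, and DESeq2 4606 of 39304. In 4n-bottom against 2n-whole, where 1 member was called, the number of members was 2 with no fold limit, 2 with DESeq2, 2 with ComBat-seq and DESeq2, 2 with DESeq2 size factors, 4 with no filter on low counts, 3 with only these populations and 2 to 3 leaving out 1 mouse. Over all genes the main model called 41 higher and 40 lower there, and DESeq2 3867 of 39304. ComBat-seq with DESeq2 called 275 of 18674 genes, and DESeq2 size factors gave 76 of 17488. No filter gave 145 of 39304, only these populations 92 of 14714, and leaving out 1 mouse 49 to 111. In 4n-whole against 4n-bottom the number of members was 1 with DESeq2, 1 with ComBat-seq and DESeq2, 1 with DESeq2 size factors, 1 with no filter and 0 to 1 leaving out 1 mouse, and Mup20 was the member each time. Over all genes DESeq2 called 3379 of 39304 there, ComBat-seq with DESeq2 30 of 9586, and DESeq2 size factors 3 of 17488. No filter gave 45 of 39304, and leaving out 1 mouse 0 to 65. Leaving out 1 mouse gave 0 to 1 members in 4n-top against 4n-bottom, 2 to 5 in 4n-top against 2n-whole and 4 to 9 for the mouse term. Over all genes it gave 0 to 29 called in 4n-top against 4n-bottom and 98 to 238 in 4n-top against 2n-whole. For the mouse term the count over all genes was not taken with a mouse left out. The cause of these shifts was not tested. The family sum in 4n-top against 2n-whole moved from -0.30 to -0.11 (log2) as a share of the total count and that in 4n-bottom against 2n-whole from -0.19 (4 of 4 mice lower) to -0.06 (3 of 4), and leaving out mouse 4 turned that of 4n-top against 4n-bottom from -0.07 to 0.08.

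Members that were not called changed sign 48 times. Without the block, 4n-top against 4n-bottom gave -0.18 for Mup1, -0.54 for Mup2, -0.05 for Mup7, -0.32 for Mup11, -0.08 for Mup17 and -0.08 for Mup21, 4n-top against 2n-whole -0.31 for Mup2, 4n-whole against 4n-bottom 0.02 for Mup1 and 0.16 for Mup7, and 4n-whole against 4n-top 0.20 for Mup1, 0.32 for Mup2, 0.21 for Mup7, 0.59 for Mup11 and 0.17 for Mup22. In 4n-whole against 2n-whole Mup2 was -0.02 with ComBat-seq, -0.01 with DESeq2 size factors, -0.01 with DESeq2 and -0.02 with only these populations. In 4n-bottom against 2n-whole Mup22 was -0.04, -0.02 and -0.02 with the first 3 of these, and with only the populations compared Mup1 was -0.04 in 4n-top against 4n-bottom. Leaving out 1 mouse, the ranges that crossed 0 were, in 4n-whole against 2n-whole, Mup1 -0.06 to 0.52, Mup2 -0.12 to 0.14 and Mup22 -0.36 to 0.02. In 4n-top against 4n-bottom they were Mup1 -0.08 to 0.27, Mup2 -0.59 to 0.51, Mup3 -0.26 to 0.01 and Mup17 -0.02 to 0.47. Against 2n-whole they were Mup2 -0.06 to 0.41 and Mup22 -0.07 to 0.06 in 4n-bottom, and Mup2 -0.18 to 0.45 in 4n-top. In 4n-whole against 4n-bottom they were Mup1 -0.32 to 0.15, Mup2 -0.53 to 0.07, Mup7 -0.26 to 0.23 and Mup11 -0.08 to 0.30, and against 4n-top Mup2 -0.43 to 0.06, Mup3 -0.27 to 0.07, Mup20 -0.32 to 0.00 and Mup22 -0.16 to 0.07. At 3 counts or fewer, below 0.120 CPM, a level was not detectable at this depth.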
